A study of Mus musculus with 6 samples.

Results

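The genes of N-glycan assembly and of the nucleotide sugars that feed it were followed through chronic epinephrine exposure in MIN6 cells. There were 42 of them among the 22298 genes of the table, taken by name for their known role in making UDP-GlcNAc or GDP-mannose, building the lipid-linked oligosaccharide, trimming N-glycans or branching them, by a rule that names them and uses no measured value. Earlier results of these data were known when they were chosen. All 42 were in the table, and 41 passed the filter on low counts. MIN6 is an insulin-secreting mouse insulinoma line, and its RNA was sequenced in 3 control samples and 3 samples labelled chronic epinephrine. In the study's description, chronic exposure was 100 nM epinephrine for 3 days with 2 days of withdrawal after it. The day of RNA collection is not named, which leaves unknown whether epinephrine had been withdrawn before it. The cells are a single tumour line, no allele or other agent separates the groups, and the study's methods speak of biological replicates and independent samples in general, without saying how the sequenced samples were cultured. The labels do not say that they were separate cultures, so the p-values measure the spread between these samples, which may in part be technical. In bulk RNA, fewer expressing cells and less RNA per cell cannot be told apart.

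N-glycosylation attaches a preassembled sugar chain to proteins as they enter the endoplasmic reticulum (ER). The chain is built on dolichol, a lipid of the ER membrane, first on the cytosolic face from UDP-GlcNAc and GDP-mannose and then on the luminal face from dolichol-phosphate mannose and dolichol-phosphate glucose. After transfer to the protein its glucoses are trimmed and put back while the protein folds, and its mannoses are trimmed before the chain is branched in the Golgi. In beta cells the insulin receptor, ion channels and the glucose transporter of the plasma membrane carry such chains, whereas insulin itself does not.

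Library totals ran from 15017065 to 18127171 expected counts, and 3 counts corresponded to 0.165 to 0.200 CPM (counts scaled to a common library size). All 10 beta cell markers exceeded 3 counts in every sample. Among them, Slc2a2 had 547 to 623 CPM in the controls and 339 to 361 CPM after epinephrine. For Ins1 the values were 2815 to 2932 and 1983 to 2091 CPM. Pdx1, Nkx6-1, Ucn3 and Slc30a8 were also lower in every epinephrine sample, Iapp was higher in every one, and Ins2, Mafa and Pcsk1 overlapped. Control 1 stood apart, since across genes its log2 CPM correlated at 0.979 and 0.978 with the other controls, which correlated at 0.993 with each other, and the epinephrine samples correlated with one another at 0.992 to 0.993. Its deviation from the other controls followed transcript length (Spearman 0.39 over 12742 genes, against -0.05 to 0.06 in the epinephrine samples). The deviations of controls 2 and 3 had the opposite relation to length (-0.20 and -0.47). Each deviation is taken from the mean of the other controls, so these values are not independent of one another. Among the 41 tested pathway genes they were 0.29, 0.09 and -0.55 for controls 1, 2 and 3. Of 13 hepatocyte markers, the 12 other than Ttr, which islet cells also express, summed to 19.0, 80.8 and 191.5 CPM in controls 1, 2 and 3 and to 11.7 to 12.9 CPM after epinephrine. Alb, their most specific member, had 0.194, 33.9 and 82.3 CPM in the controls and 0.297, 0.448 and 0.331 CPM after epinephrine. Ttr had 837, 1058 and 1333 CPM in the controls and 1622, 1556 and 1744 CPM after epinephrine, and with it the 13 summed to 856 to 1525 and 1569 to 1755 CPM. The summed exocrine and endothelial markers stayed at or below 0.438 and 0.712 CPM in every sample. Gcg, the glucagon gene and an alpha cell marker, had 175.2 to 211.6 CPM in the controls and 376.8 to 409.3 CPM after epinephrine. The 5 leukocyte markers summed to 0.400 to 1.25 CPM in the controls and 2.19 to 3.80 CPM after epinephrine, with Ptprc at or below 0.119 CPM. Cd68 made up most of the sum after epinephrine, at 2.13 to 3.38 CPM, and had 0.343 to 0.712 CPM in the controls. In control 3, Cd68 and Lyz2 were equal at 0.563 CPM. The 6 fibroblast markers summed to 1.66 to 22.6 and 1.79 to 19.5 CPM. With an offset for transcript length in each sample, Gmppb was again the only one of the 41 called by edgeR, but the median log2 fold changes of the GDP-mannose and dolichol phosphate steps went from 0.20 to 0.10 and from 0.21 to 0.10. Among their genes, Pmm1 went from 0.22 to 0.10, Dpm2 from 0.21 to 0.10 and Mpi from 0.11 to 0.01. Mpdu1 went from 0.16 to 0.04 and Dpm3 from 0.40 to 0.27, while Dpm1 went from 0.05 to 0.07. Among the genes for UDP-GlcNAc, Uap1 went from 0.10 to 0.04 and Gfpt1 from 0.10 to 0.16. The part of the beta cell, hepatocyte, leukocyte and fibroblast markers and of Gcg in the results was not tested, and values without control 1 are given beside the results that it moves.

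Most of the pathway genes had a higher fitted level after epinephrine, with the highest step medians among those that extend the lipid-linked chain in the ER lumen (0.40 on the log2 scale) and those that trim its glucoses (0.34) and a median of -0.04 in the Golgi, but single genes rarely passed the test. Without control 1 these medians were 0.39, 0.56 and 0.03. By edgeR's quasi-likelihood test with the false discovery rate (FDR, Benjamini-Hochberg over 12747 genes), 1 of the 41 tested genes passed FDR 0.05, namely Gmppb, which rose 1.65-fold. Of all tested genes, 2.63% passed in either direction and 2.02% rose. An unadjusted p under 0.05 was reached by 10 of the 41, all of them higher (24.4%, against 9.19% of all tested genes). The fitted log2 fold change was above 0 for 33 of the 41 (80.5%, against 49.5% of all genes), with a median of 0.16 where all genes had -0.00. In CPM, every epinephrine sample lay above every control in 15 of the 41 (36.6%), against 14.3% of all genes. In Man1a2 alone every epinephrine sample lay below, against 13.0%. Uap1, Gmppa, Alg13 and Man1a, which are among the 15, overlapped in FPKM (fragments per length of transcript and per library total). The share of all genes that did not overlap in FPKM was not computed. Without control 1, 16 of the 41 passed FDR 0.05 and all 16 were higher (39.0%), while 12.1% of all genes were called higher and 9.46% lower. The median of the 41 was then 0.13. DESeq2 called 4 of them with all 6 samples, Gmppb, Mogs, Mgat2 and Alg8, and all were higher, where 3.18% of the genes with a DESeq2 adjusted p were called higher.

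**Figure D1:**
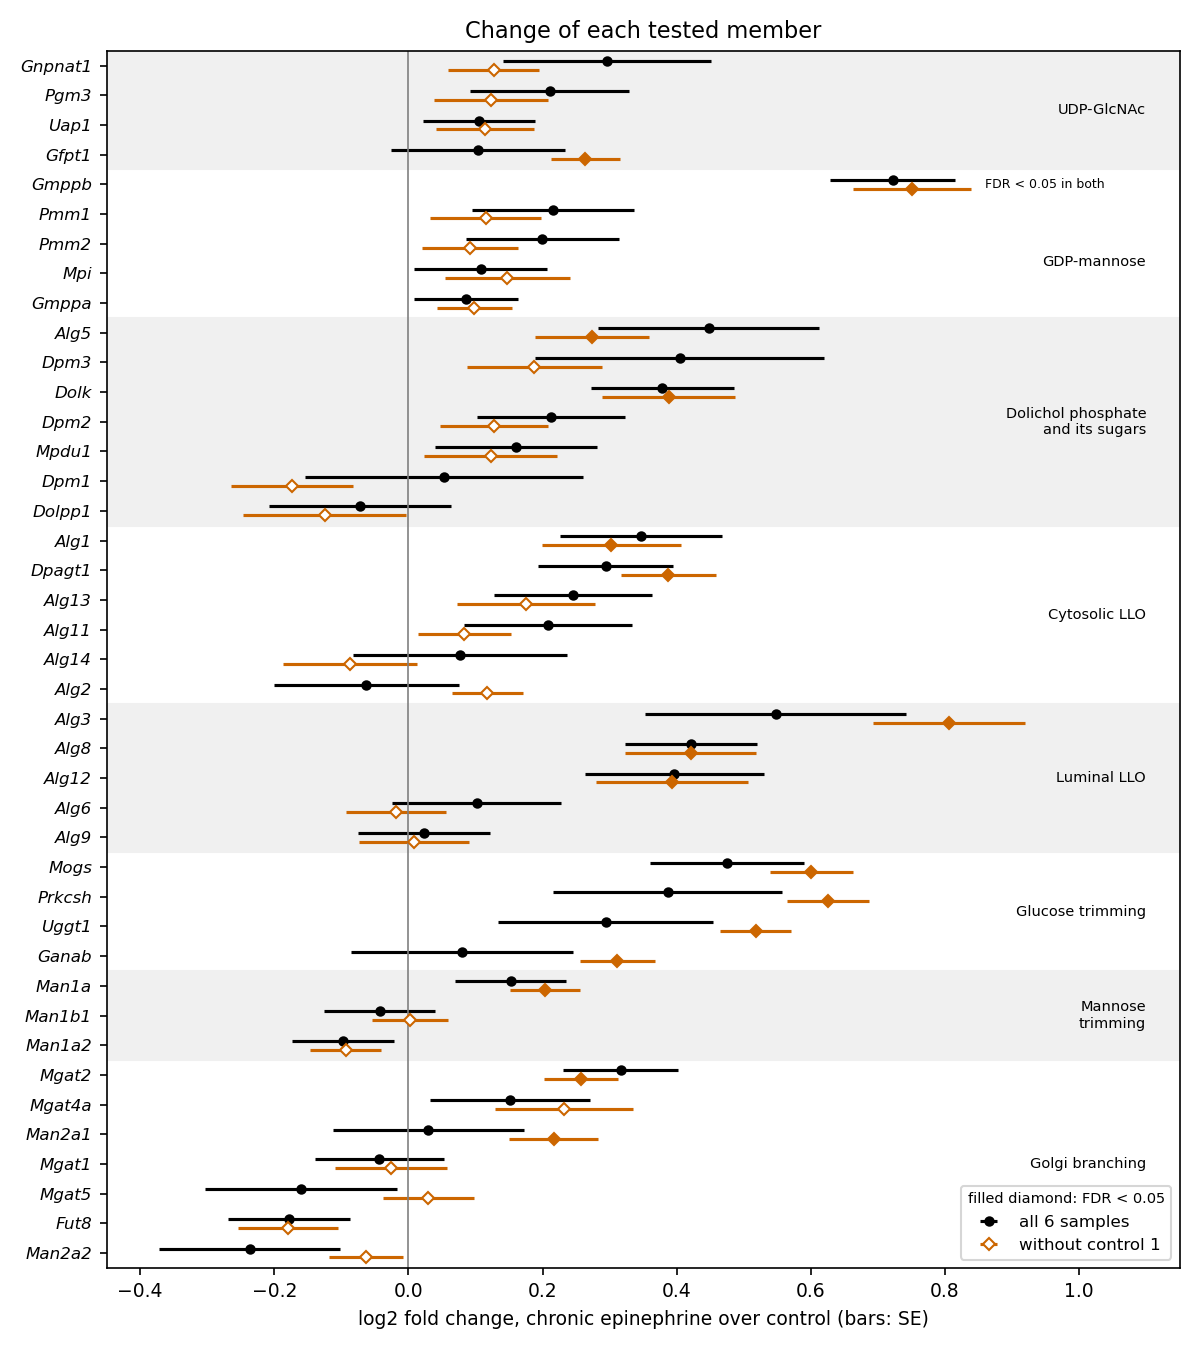
Change of each of the 41 tested genes on the log2 scale (x axis, chronic epinephrine over control, bars are standard errors), grouped by step of the pathway, with all 6 samples (black circles) and without control 1 (orange diamonds, filled where FDR is under 0.05). LLO is the lipid-linked oligosaccharide. Gmppb passes FDR 0.05 in both fits, and the 4 glucose-trimming genes all pass it once control 1 is left out.

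Levels between genes were compared as FPKM, averaged over the 6 samples. Ganab, the catalytic subunit of glucosidase II, had the highest level at 99.7 FPKM. Uggt1, Prkcsh, Gmppa, Alg2, Gfpt1 and Dpm3 followed at 83.6, 81.9, 80.0, 69.4, 67.7 and 61.2 FPKM. Each neighbouring pair in this order of 7 genes overlapped over the single samples. The lowest of the tested genes was Mgat4a, a branching enzyme of the Golgi, at 2.64 FPKM, and the median of the 41 was 16.1 FPKM. The 5 luminal transferases among the 42 lay close together, from 8.42 FPKM for Alg8 to 16.0 FPKM for Alg6. Gfpt2, the second enzyme able to open the hexosamine pathway, had 0 to 3 counts per sample and was not tested, so Gfpt1 supplied nearly all transcripts for that step.

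**Figure D2:**
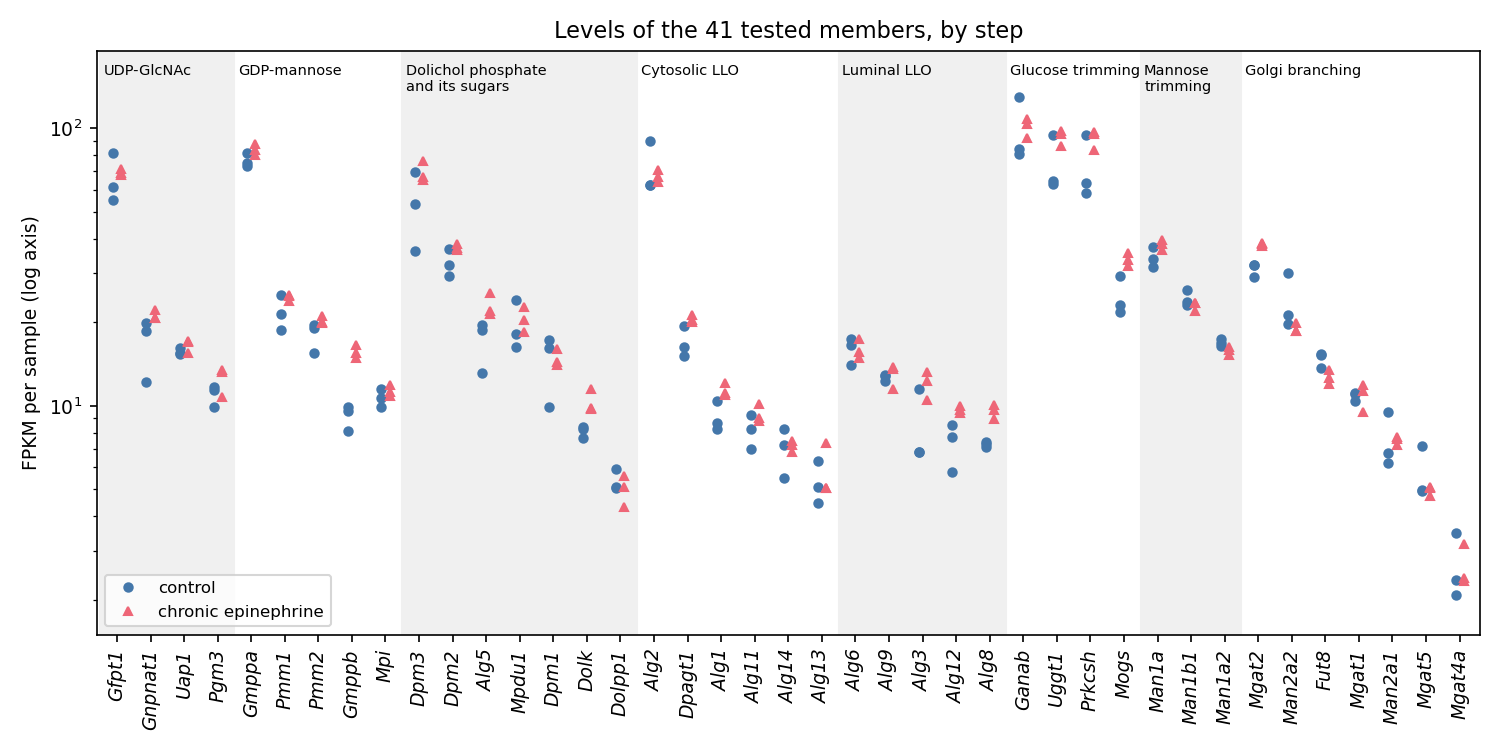
FPKM of each tested gene in each sample (y axis, log scale; circles are control and triangles chronic epinephrine), with genes ordered by mean level within each step of the pathway. Mean levels run from 2.64 FPKM for Mgat4a to 99.7 FPKM for Ganab, and in 5 of the 7 highest genes, Gfpt1, Alg2, Prkcsh, Uggt1 and Ganab, control 1 lies well above controls 2 and 3.

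GDP-mannose, the source of most sugars of the chain, directly or through dolichol-phosphate mannose, is made from fructose-6-phosphate by Mpi, the phosphomannomutases Pmm1 and Pmm2 and GDP-mannose pyrophosphorylase. Gmppb encodes the catalytic subunit of the last enzyme, and it was the only one of the 41 that edgeR called with all samples. Its values were 18.8, 17.3 and 18.1 CPM in controls 1, 2 and 3 and 28.4, 29.7 and 31.3 CPM after epinephrine. The groups were far apart, with means of 18.1 ± 0.729 and 29.8 ± 1.43 CPM (SD, n = 3 each). The log2 fold change was 0.72 ± 0.09 (SE; edgeR FDR 0.00710), and it was 0.75 without control 1 (FDR 2.6e-07). Leaving out epinephrine replicate 1, 2 or 3 took its FDR to 0.0556, 0.0651 and 0.0563. Gmppb lies on chromosome 9 at 108049242 to 108052801 (GRCm38, plus strand), where 937 bases of its exons are overlapped by exons of Rnf123 on the other strand and 2.12% of its 50-base windows recur in Gm20529. Whether counting used strand is not stated. The expected counts of Gmppb and Rnf123 were not whole in any sample, with 289.56 and 739.44 in control 1. Reads from the overlap may therefore have been divided between the genes, and the part of this in the change of Gmppb was not tested. Rnf123 had 47.8, 31.6 and 35.9 CPM in the controls and 36.0, 32.5 and 35.6 CPM after epinephrine, with overlapping groups and a log2 fold change of -0.15 (FDR 0.662). Gmppa encodes the partner that restrains this enzyme when GDP-mannose is plentiful, and it had 98.4, 92.9 and 98.99 CPM in the controls against 100.2, 105.5 and 102.3 CPM after epinephrine. These groups were narrowly separate in CPM but overlapped in FPKM, and the log2 fold change was 0.09 ± 0.08 (FDR 0.624). Pmm1, Pmm2 and Mpi had log2 fold changes of 0.22, 0.20 and 0.11 and FDR of 0.412 to 0.627, or 0.12, 0.09 and 0.15 without control 1 (FDR 0.285 to 0.405). In all 5 genes of the step the fitted change was above 0, with a median of 0.20 (0.12 without control 1).

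UDP-GlcNAc, which provides the first sugars of the chain, comes from the hexosamine pathway. Gfpt1 encodes its entry enzyme and had 489.1, 380.4 and 342.6 CPM in the controls and 444.2, 425.6 and 432.6 CPM after epinephrine. The controls spanned the whole epinephrine group, control 1 above it and the other controls below. The log2 fold change was accordingly 0.10 ± 0.13 (FDR 0.731) and became 0.26 ± 0.05 without control 1 (FDR 0.000396). Gnpnat1, which acetylates glucosamine-6-phosphate, gave the smallest p of the step. It had 30.2, 45.7 and 45.1 CPM in the controls and 50.2, 52.1 and 46.1 CPM after epinephrine. Here control 1 was the low sample, and the log2 fold change of 0.30 ± 0.16 (FDR 0.377) shrank to 0.13 without it (FDR 0.198). Its exons share 3878 bases with Styx on the other strand, a gene with a log2 fold change of 0.09. Exons of Pgm3, Alg1 and Man2a2 share 1270, 472 and 427 bases with Dop1a, Eef2kmt and Hddc3 on the other strand. In control 1 the expected counts of Gnpnat1, Pgm3, Alg1 and Man2a2 were not whole. The part of reads divided between overlapping genes in their changes was not tested. Pgm3 and Uap1, which complete the synthesis, had log2 fold changes of 0.21 (FDR 0.412) and 0.10 (FDR 0.567), which were 0.12 and 0.11 without control 1. Pgm3 overlapped between the groups. Uap1 was barely separate in CPM, with 36.057 in control 1 and 36.085 in epinephrine replicate 2, and overlapped in FPKM. The median of the 4 tested genes was 0.16, or 0.13 without control 1.

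Dolichol phosphate carries the chain and, once charged, also donates the luminal mannoses and glucoses. Dolk, the kinase that makes dolichol phosphate, had 17.2, 16.1 and 17.5 CPM in the controls and 20.8, 20.8 and 24.4 CPM after epinephrine. The groups did not overlap, control 1 sat between the other controls, and the log2 fold change was 0.38 ± 0.11 (FDR 0.112). It passed without control 1 at an almost equal size, 0.39 (FDR 0.00495). Alg5, the synthase of dolichol-phosphate glucose, had 18.4, 28.3 and 27.5 CPM in the controls and 31.3, 32.6 and 37.8 CPM after epinephrine, a log2 fold change of 0.45 ± 0.17 (FDR 0.212). Control 1 was again the low sample, and the fold change was 0.27 without it (FDR 0.0206). Alg5 was chosen for values by sample after its result was seen.

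Dolichol-phosphate mannose synthase has a catalytic subunit, Dpm1, and the membrane subunits Dpm2 and Dpm3 that hold and stabilize it. Dpm3, the most abundant gene of the step, had 14.2, 21.7 and 28.3 CPM in the controls and 26.5, 31.3 and 27.3 CPM after epinephrine. The wide control range overlapped the epinephrine range. The log2 fold change was 0.40 ± 0.22 (FDR 0.383) with all samples, 0.19 without control 1 (FDR 0.193) and 0.66 without control 3 (FDR 0.151). Dpm2 had a log2 fold change of 0.21 (FDR 0.373) and Dpm1 one of 0.05 (FDR 0.924), and without control 1 they were 0.13 and -0.17. For Dpm1, 895 exon bases are shared with Gm20716 on the same strand, so reads could have been divided between them. Gm20716 had 133.3, 131.5 and 121.0 CPM in the controls and 124.7, 120.5 and 113.0 CPM after epinephrine. Dpm1 had 13.7, 24.7 and 24.0 CPM in the controls and 19.5, 22.7 and 22.5 CPM after epinephrine. Mpdu1, needed to use both dolichol-linked sugars, had 0.16 (FDR 0.546), and Dolpp1, which recycles the spent carrier, had -0.07 (FDR 0.829), against 0.12 and -0.12 without control 1. For Mpdu1 the value was 0.27 without control 3 and 0.09 without control 2. In 5 of these 7 genes (71.4%, against 44.4% of all tested genes) control 1 was below both other controls. In none was it above both, against 43.1% of all tested genes.

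The cytosolic face of the ER adds the first GlcNAc and mannose residues. Dpagt1, which places the first GlcNAc on dolichol phosphate and is the target of tunicamycin, had 41.1, 32.9 and 35.5 CPM in the controls and 44.7, 43.9 and 45.6 CPM after epinephrine. Every epinephrine sample was above every control, and the log2 fold change was 0.29 ± 0.10 (FDR 0.187), or 0.39 without control 1 (FDR 0.000171). Alg1, which adds the first mannose, had a log2 fold change of 0.35 ± 0.12 (FDR 0.192) and 0.30 without control 1 (FDR 0.0369). Alg2, which adds the next mannoses, was the most abundant gene of the step and the exception to its direction. It had 263.9, 187.9 and 188.6 CPM in the controls and 201.5, 195.6 and 216.1 CPM after epinephrine. Control 1 was above every other sample, and the log2 fold change went from -0.06 ± 0.14 (FDR 0.854) to 0.12 (FDR 0.119) when it was left out. Alg13 and Alg14, the catalytic and anchoring subunits of the enzyme for the other GlcNAc, had log2 fold changes of 0.24 (FDR 0.338) and 0.08 (FDR 0.845), or 0.18 and -0.09 without control 1. Alg11, which finishes the cytosolic chain, had 0.21 (FDR 0.444), or 0.08 without it. The median of the 6 genes was 0.23 with all samples and 0.15 without control 1.

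The luminal face adds the remaining mannoses through Alg3, Alg9 and Alg12 and glucoses through Alg6 and Alg8. In the main fit these 5 genes had the highest median of the 8 steps, 0.40. Their median was 0.39 without control 1 and 0.33 with the offset for transcript length. Glucose trimming was higher in both of those fits, at 0.56 and 0.34. The outermost glucose is added by Alg10b, which is not among the 42. It had a log2 fold change of 0.01 ± 0.08 (FDR 0.978) with overlapping groups, and with it the median of the 6 luminal genes was 0.25, or 0.21 without control 1, below that of glucose trimming. Alg8, a glucosyltransferase, had 14.7, 14.5 and 14.96 CPM in the controls and 20.7, 18.5 and 19.9 CPM after epinephrine. The controls were nearly equal and the groups well apart, at 14.7 ± 0.248 and 19.7 ± 1.12 CPM (SD, n = 3 each). Its log2 fold change was 0.42 ± 0.10 (FDR 0.0675), with an FDR of 0.0395 in DESeq2 and of 0.00217 in edgeR without control 1. Alg12, a mannosyltransferase, had 14.4, 12.2 and 17.1 CPM in the controls and 19.3, 18.4 and 19.8 CPM after epinephrine. These groups did not overlap, and the log2 fold change was 0.40 ± 0.13 (FDR 0.181), or 0.39 without control 1 (FDR 0.0126). Alg3, which starts the luminal mannoses, had 15.7, 9.66 and 9.89 CPM in the controls and 17.4, 15.1 and 18.8 CPM after epinephrine. Control 1 lay inside the epinephrine range, and the log2 fold change of 0.55 ± 0.19 (FDR 0.197) was 0.81 ± 0.11 without it (FDR 5.2e-06), the largest of the 41 in that fit. Alg3 and Alg12 were chosen for values by sample after their results were seen. Alg6, the glucosyltransferase that acts before Alg8, had 29.3, 40.4 and 36.9 CPM in the controls and 38.1, 40.6 and 35.8 CPM after epinephrine. Its groups overlapped and its log2 fold change was 0.10 (FDR 0.729), and Alg9, whose enzyme acts between Alg3 and Alg12 and again after it, had 0.02 (FDR 0.930). Without control 1 these were -0.02 and 0.01.

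**Figure D3:**
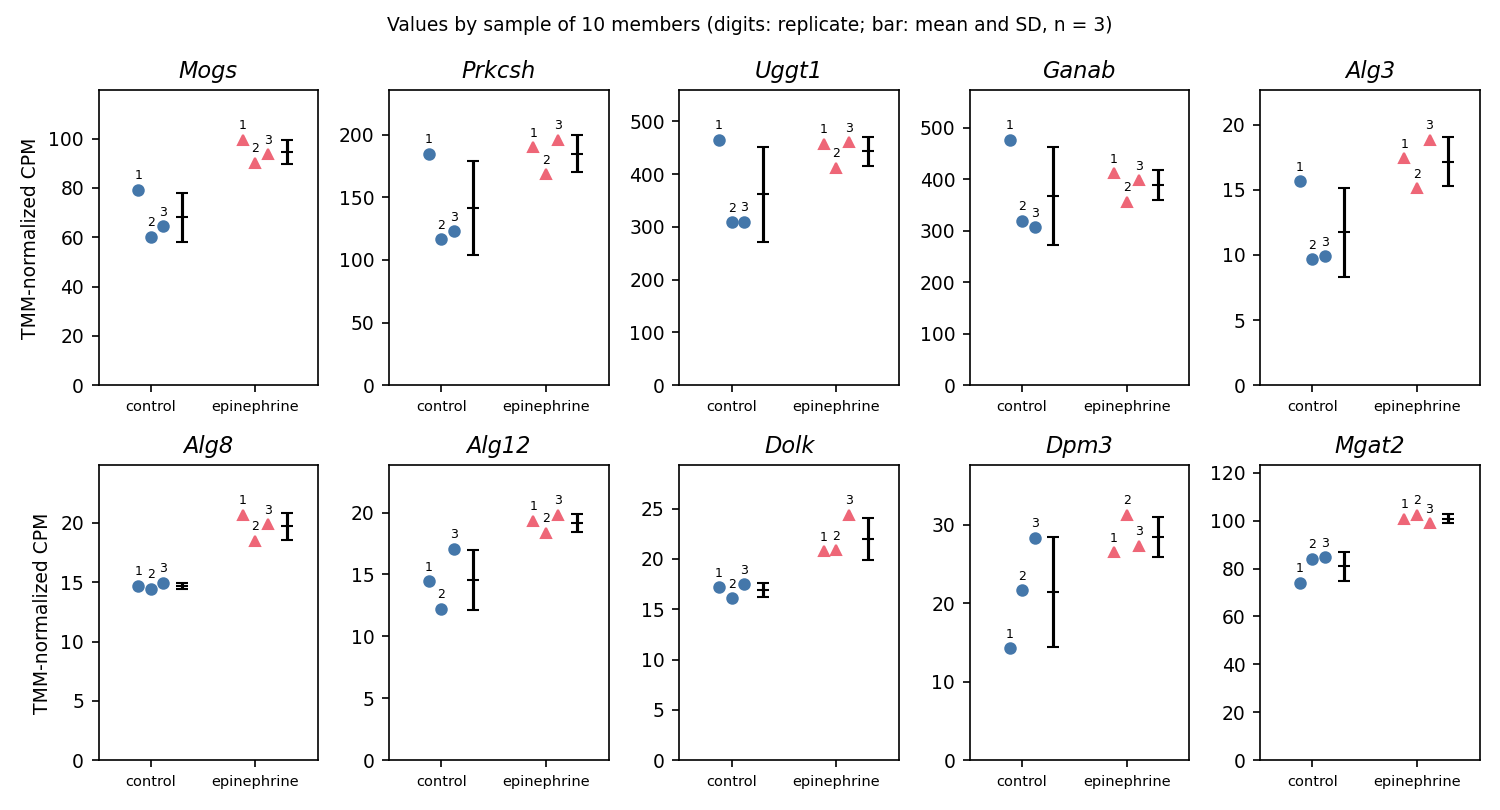
TMM-normalized CPM (y axis, from 0) of 10 genes in each sample, with replicate numbers beside the points and the mean and SD of each group (n = 3) as bars. Mogs, Alg8, Alg12, Dolk and Mgat2 have every epinephrine sample above every control, whereas in Prkcsh, Uggt1, Ganab and Alg3 control 1 lies among or above the epinephrine samples and in Dpm3 control 1 is the lowest sample.

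Promoter windows were read from RefSeq on GRCm38.p6 (250 bases before to 50 bases after a start) because several of these genes shared a direction. A window was found for 35 of the 42 genes. Gnpnat1, Gmppb, Dpagt1, Alg2, Alg11, Man1a2 and Man2a2 had none. The median share of G and C bases was 61.0% in the windows of the 35 genes and 52.7% over all windows. The part of this difference in the motif shares was not tested. The ER stress response element (ERSE), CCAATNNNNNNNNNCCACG on either strand, where ATF6 acts together with NF-Y, was present in 1 of the 35 (2.86%), Alg12, against 0.137% of the 27025 genes with a window. The window of Alg12, chr15:88819269-88819568 on the minus strand, is printed 5′ to 3′ with the element in capitals. The element began 220 bases before the start.
Alg12: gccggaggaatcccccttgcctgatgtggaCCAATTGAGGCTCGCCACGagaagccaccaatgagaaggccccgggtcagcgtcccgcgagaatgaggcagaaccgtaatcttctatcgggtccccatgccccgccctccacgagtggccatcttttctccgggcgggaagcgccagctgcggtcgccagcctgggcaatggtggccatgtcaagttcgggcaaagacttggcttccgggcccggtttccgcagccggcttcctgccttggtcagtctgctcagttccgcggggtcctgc
With at most 1 mismatch among the 10 fixed letters, Dolk and Alg6 were added, making 3 of 35 (8.57%) against 1.72% of all genes. Their matches began 58 and 86 bases before the start, in chr2:30286305-30286604 on the minus strand and chr4:99715380-99715679 on the plus strand, and are printed in capitals within 20 flanking bases on each side.
Dolk: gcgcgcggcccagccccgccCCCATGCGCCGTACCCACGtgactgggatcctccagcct
Alg6: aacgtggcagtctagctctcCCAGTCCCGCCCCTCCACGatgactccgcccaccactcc
Of these 3 genes, Alg12 and Dolk were higher in every epinephrine sample and Alg6 was not. The other motifs were rare or absent in the windows. UPRE (TGACGTGG, bound by ATF6 and XBP1) was in 0 of 35 against 0.714% of genes, and ERSE-II (ATTGGNCCACG) was in 0 against 0.044%. CARE (TGATGNAA, bound by ATF4 and its partners) was in Fut8 only against 4.51%, and CRE (TGACGTCA, bound by CREB) was in Alg13 only against 2.03%. UPRE and CRE share the letters TGACGT, and both ERSE forms end in CCACG. A match is a description of these letters and does not show that a factor binds there.

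Glucose trimming removes the glucoses of the finished chain and checks folding. Mogs encodes glucosidase I, which takes the outermost glucose, and had 79.4, 60.2 and 64.5 CPM in the controls and 99.6, 90.3 and 93.8 CPM after epinephrine. The groups did not overlap, at 68.0 ± 10.04 and 94.6 ± 4.73 CPM (SD, n = 3 each). Its log2 fold change was 0.48 ± 0.11 (FDR 0.0767), with an FDR of 0.0150 in DESeq2, and it was 0.60 ± 0.06 without control 1 (edgeR FDR 2.7e-08). Glucosidase II, which removes the inner glucoses, pairs the catalytic Ganab with Prkcsh, the subunit that recognizes mannose and keeps the enzyme in the ER. Ganab had 477.1, 319.4 and 307.2 CPM in the controls and 412.4, 356.3 and 397.8 CPM after epinephrine. Control 1 was above every other sample, and the log2 fold change was 0.08 ± 0.17 (FDR 0.845) with it and 0.31 ± 0.06 (FDR 0.000143) without it. Prkcsh had 184.8, 116.6 and 123.1 CPM in the controls and 190.3, 168.6 and 196.2 CPM after epinephrine. Control 1 fell within the epinephrine range, and the log2 fold change was 0.39 ± 0.17 (FDR 0.297), or 0.63 ± 0.06 (FDR 9.9e-09) without it. Uggt1, which puts a glucose back on misfolded glycoproteins for another round of calnexin binding, had 465.2, 309.2 and 309.6 CPM in the controls and 457.3, 411.8 and 460.1 CPM after epinephrine. Here too control 1 was above every other sample. The log2 fold change was 0.29 ± 0.16 (FDR 0.396) with it and 0.52 ± 0.05 (FDR 2.7e-08) without it. Without control 2 or control 3 it was 0.19. Prkcsh and Uggt1 were chosen for values by sample after their results were seen. In all 4 genes control 1 was above both other controls, as it was in 18 of the 41 and in 43.1% of all genes. The step's median was 0.34 with all samples and 0.56 without control 1, the largest shift of any step.

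Mannose trimming in the ER and Golgi showed no common direction. Man1a, the most abundant gene of the step, had 184.0, 171.2 and 160.6 CPM in the controls and 191.4, 189.8 and 192.0 CPM after epinephrine. The groups were separate by a narrow margin in CPM but overlapped in FPKM. The log2 fold change was 0.15 ± 0.08 (FDR 0.399), or 0.20 without control 1 (FDR 0.00497). Its paralog Man1a2 had 133.8, 134.2 and 131.3 CPM in the controls and 122.6, 128.5 and 122.0 CPM after epinephrine. This was the single pathway gene with every epinephrine sample below every control, at a log2 fold change of -0.10 ± 0.08 (FDR 0.558). Man1b1, which trims misfolded glycoproteins for degradation, had -0.04 (FDR 0.831). Without control 1, Man1a2 had -0.09 and Man1b1 0.00. Man1a2 was chosen for values by sample after its result was seen.

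In the Golgi, Mgat1 opens branching, Man2a1 and Man2a2 trim the last mannoses, and Mgat2, Mgat4a and Mgat5 add further branches, while Fut8 adds the core fucose. Mgat2 had 74.1, 84.1 and 84.7 CPM in the controls and 100.9, 102.5 and 98.9 CPM after epinephrine. The groups did not overlap, and the log2 fold change was 0.32 ± 0.09 (FDR 0.101), with an FDR of 0.0268 in DESeq2 and 0.26 without control 1 (edgeR FDR 0.00113). Of the other 6 genes of the step, Mgat4a and Man2a1 were also above 0 and 4 were below. Mgat4a had a log2 fold change of 0.15 (FDR 0.563), Mgat1 -0.04 (FDR 0.854), Mgat5 -0.16 (FDR 0.620), Fut8 -0.18 (FDR 0.367) and Man2a2 -0.24 (FDR 0.416). Without control 1, Mgat4a had 0.23, Mgat1 -0.03, Mgat5 0.03 and Fut8 -0.18, and none of these 4 passed. Man2a1 had 64.7, 47.3 and 43.9 CPM in the controls and 54.3, 51.4 and 53.4 CPM after epinephrine. Its controls surrounded the epinephrine samples, and the log2 fold change was 0.03 (FDR 0.939), or 0.22 without control 1 (FDR 0.0181). Man2a2 had 169.7, 125.3 and 119.8 CPM in the controls and 116.7, 112.9 and 122.4 CPM after epinephrine. Control 1 was far above all other samples, and without it the log2 fold change was -0.06 (FDR 0.458). Both were chosen for values by sample after their results were seen. The median of the 7 Golgi genes was -0.04 with all samples and 0.03 without control 1.

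Because control 1 raised or lowered many genes together, 8 pairs of subunits or paralogs were also compared as a ratio of FPKM within each sample. The pairs were chosen after the values of the genes were seen, so the ratios are given without a test. In 5 of the 8 the groups did not overlap, by FPKM and by expected counts alike. Of all 820 pairs that the 41 genes can form, 26.1% did not overlap. The ratio of Gmppb to Gmppa was 0.123, 0.110 and 0.128 in the controls and 0.170, 0.185 and 0.208 after epinephrine. The catalytic subunit thus stood higher against its restraining partner in every epinephrine sample, by 0.64 ± 0.11 on the log2 scale (SE) and 0.65 without control 1. The ratio of Prkcsh to Ganab was 0.729, 0.691 and 0.791 in the controls and 0.882, 0.903 and 0.929 after epinephrine. Control 1, far above the other controls in both genes, fell between them in this ratio, and the difference was 0.30 ± 0.06 with it and 0.29 without it. The ratio of Man2a2 to Man2a1 was 3.17, 3.13 and 3.15 in the controls and 2.42, 2.57 and 2.62 after epinephrine, a log2 difference of -0.31 ± 0.04. The 3 controls were almost equal here, although control 1 was the highest sample for each gene. The ratio of Man1a2 to Man1a was 0.469, 0.5002 and 0.518 in the controls and 0.412, 0.437 and 0.397 after epinephrine, a log2 difference of -0.26 ± 0.06. The ratio of Dpm3 to Dpm1 was 3.64, 3.30 and 4.02 in the controls and 4.66, 4.74 and 4.66 after epinephrine, a log2 difference of 0.36 ± 0.08. For Dpm3 over Dpm1 and Man1a2 over Man1a the differences without control 1 were 0.36 and -0.30. Ratios with Dpm1, Gmppb or Man2a2 may in part reflect how reads shared with overlapping genes were divided, which was not tested. The pairs Alg14 and Alg13, Dpm2 and Dpm1, and Pmm2 and Pmm1 overlapped between the groups.

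**Figure D4:**
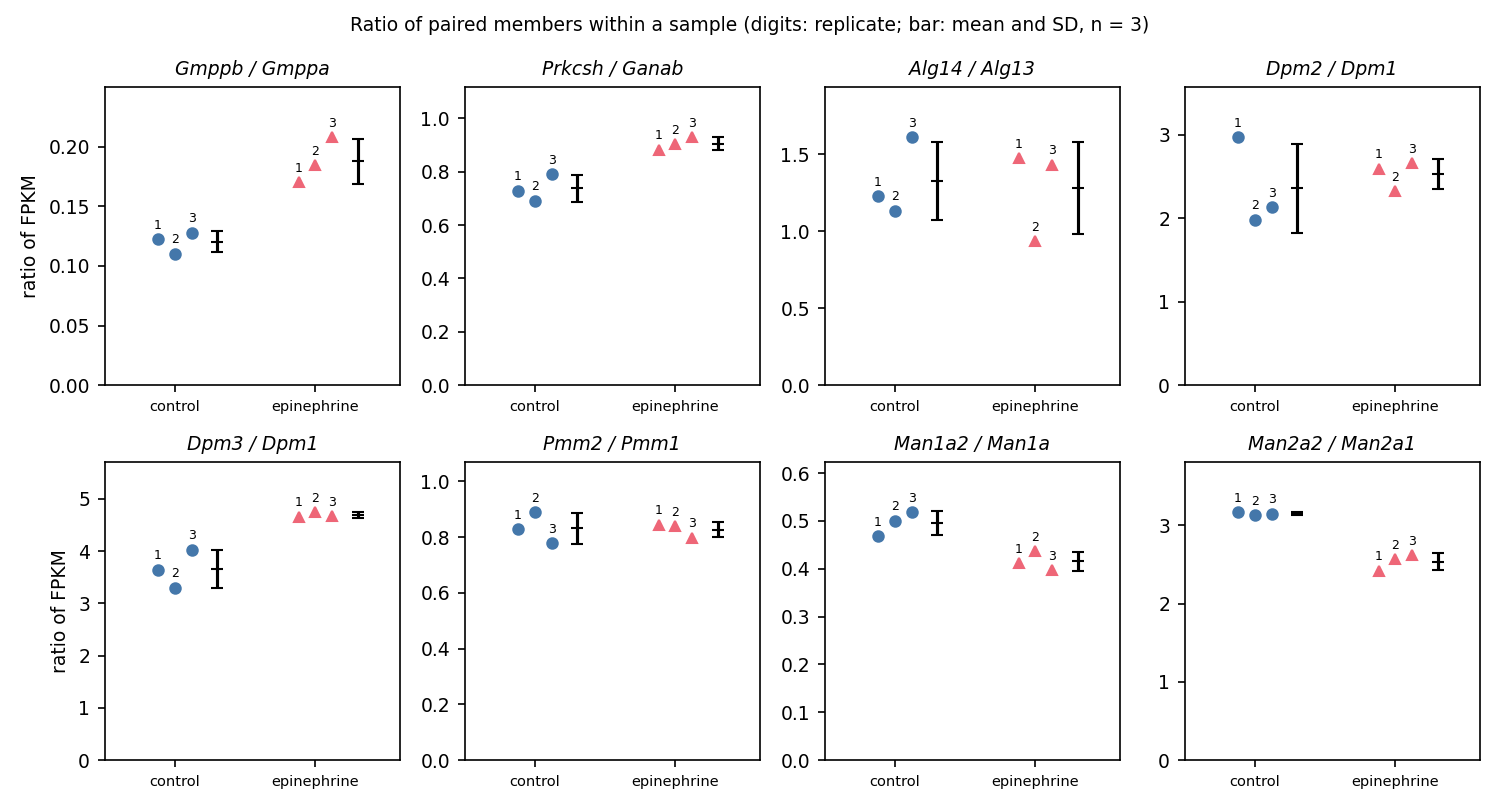
Ratio of the FPKM of the named genes within each sample (y axis, from 0), with replicate numbers beside the points and the mean and SD of each group (n = 3) as bars. Gmppb over Gmppa, Prkcsh over Ganab and Dpm3 over Dpm1 are higher in every epinephrine sample, Man1a2 over Man1a and Man2a2 over Man2a1 are lower, and the remaining 3 pairs overlap.

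Beside the 42 genes, 44 others listed for the same pathways are reported, and 42 of them were tested. Their median log2 fold change was 0.06, 28 were above 0, and 3 (7.14%, against 2.02% of all genes) rose with FDR under 0.05 in edgeR while none fell. An unadjusted p under 0.05 was reached by 12, of which 9 were higher (21.4%, against 9.19%), and DESeq2 called 3 higher (7.14%, against 3.18%) and 1 lower. Without control 1, edgeR called 11 of the 42 higher (26.2%, against 12.1%) and 4 lower, where 9.46% of all genes were lower, and their median was 0.02. Slc35b1, an ER transporter known to carry adenine nucleotides and at first named for UDP-galactose, had 63.8, 67.3 and 69.9 CPM in the controls and 123.0, 116.2 and 120.7 CPM after epinephrine. Its groups were wholly apart, the log2 fold change was 0.84 ± 0.08 (FDR 0.00199), and it stayed under FDR 0.05 with any sample left out. Slc35a2, the UDP-galactose transporter of the Golgi, had 16.0, 15.9 and 15.9 CPM in the controls and 24.6, 23.5 and 22.2 CPM after epinephrine, a log2 fold change of 0.55 ± 0.09 (FDR 0.0200). Gmds, which turns GDP-mannose toward GDP-fucose, had 38.6, 40.98 and 43.8 CPM in the controls and 58.5, 53.2 and 61.8 CPM after epinephrine, a log2 fold change of 0.49 ± 0.09 (FDR 0.0343). Neither Slc35a2 nor Gmds overlapped between the groups, but they passed in only 1 of the 6 fits that left out a sample, the one without control 1 (FDR 6.1e-05 and 2.7e-05), and lay at 0.0676 to 0.211 in the others. With the replicate block in edgeR, Slc35a2 and Gmds did not pass (FDR 0.0772 and 0.0810), and Slc35b1 did (FDR 0.0168).

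By list, 4 genes that make dolichol or bear on its flipping, together with Alg10b, all had a fitted change above 0, and none passed in edgeR or DESeq2 and 1 had an unadjusted p under 0.05. It was Srd5a3, the polyprenol reductase, with a log2 fold change of 0.46 (edgeR FDR 0.0966), and the same 0.46 passed without control 1 (FDR 0.00385), when 2 of the 5 were called higher. Among 12 genes of other nucleotide sugars, 10 were above 0 and Gmds rose, and without control 1, 3 were called higher and 1 lower. Fcsk was lower in every epinephrine sample, with a log2 fold change of -0.45 (edgeR FDR 0.222), or -0.27 without control 1 (FDR 0.143). Of 7 genes of hexosamine salvage and O-GlcNAc cycling, 6 were above 0, and none passed in edgeR or DESeq2 and 2 had an unadjusted p under 0.05. The smaller p was that of Renbp, the renin-binding epimerase, with a log2 fold change of 0.43 (edgeR FDR 0.113), or 0.50 without control 1 (FDR 0.000530). The other was that of Oga, which was lower in every epinephrine sample. Its log2 fold change was -0.19 (edgeR FDR 0.261), or -0.16 without control 1 (FDR 0.0337). In that fit 2 of the 7 were called higher and 1 lower, and their median went from 0.10 to 0.05. Of 8 genes listed as nucleotide sugar transporters, Slc35b1 among them by its first naming, 5 were above 0 and Slc35b1 and Slc35a2 rose. Without control 1, 3 were called higher and 1 lower. The fit without control 1 called 12.1% of all genes higher and 9.46% lower, and with so few genes these list counts are given as a description. Of the 10 genes of further N-glycan processing, 8 were below 0, with a median of -0.15. In 3 of the 10 (30%, against 13.0% of all genes) every epinephrine sample lay below every control, and in none above. The median depended on control 1 and was -0.0026 without it, with 1 gene called higher and 1, Mgat3, lower. None of them passed in edgeR with all samples, and 1, Mgat3, had an unadjusted p under 0.05 and a DESeq2 call. Mgat3, which adds the bisecting GlcNAc, had 114.5, 90.2 and 87.2 CPM in the controls and 73.2, 71.8 and 74.0 CPM after epinephrine. Its groups did not overlap, and its log2 fold change was -0.41 ± 0.11 (FDR 0.105), or -0.28 without control 1 (FDR 0.000514).

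**Figure D5:**
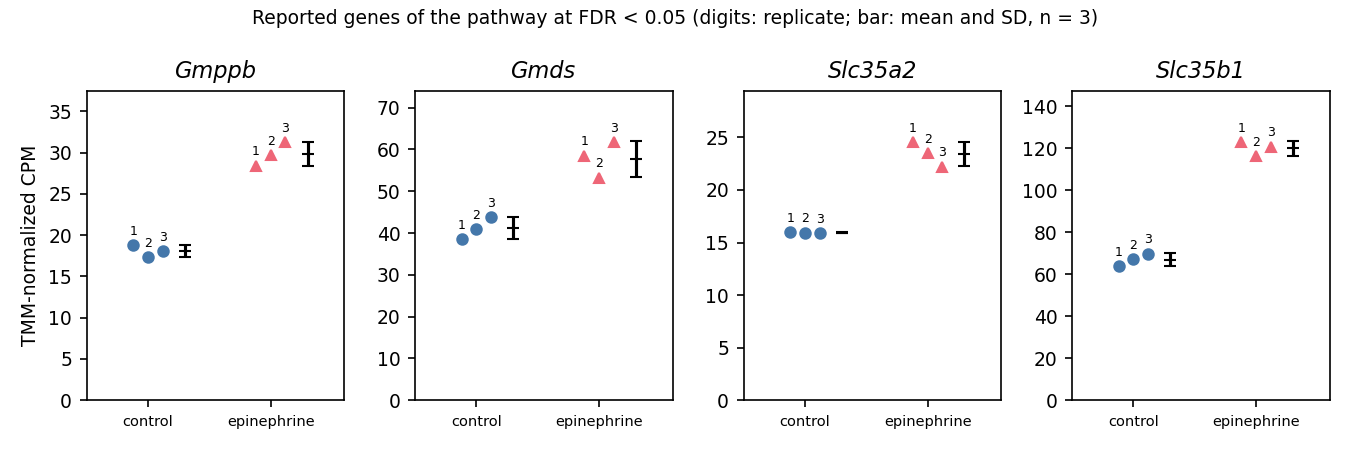
TMM-normalized CPM (y axis, from 0) of 4 genes listed for these pathways with FDR under 0.05 over all 6 samples, with replicate numbers beside the points and the mean and SD of each group (n = 3) as bars. In Gmppb, Gmds, Slc35a2 and Slc35b1 every epinephrine sample lies above every control.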

How the data were processed

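RNA-seq of MIN6 cells covered 3 control and 3 chronic epinephrine samples, grouped by their labels. The table deposited by the authors holds, per gene, the expected count of each sample without normalization and its FPKM, which accounts for transcript length and library total. The submitters' processing notes name the build GRCm38, and the aligner, counting tool and strand setting are not given in the sources used here. Library totals were 15017065 to 18127171 expected counts. PCR reads are not independent molecules, so floors cover counting error only.

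Expected counts, of which 8.34% were not whole, were rounded. The filterByExpr function left 12747 genes. After TMM scaling they entered a quasi-likelihood fit in edgeR (4.0.16, under R 4.3.3) whose only term was the group. FDR is the Benjamini-Hochberg adjusted p over all genes tested, with a threshold of 0.05, and the SE is the size of the log2 fold change divided by the square root of F. CPM are TMM-normalized. This processing, and not the steps of the pathway, was tried on simulated data, and no value from that is given. An exact permutation test of 3 against 3 samples allows no p under 0.1, so none is given.

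Replicate numbers were not treated as pairs, since same-numbered samples deviated together at r of 0.0502, 0.0677 and -0.0488 only. Every pathway gene is named. Values by sample are given for genes with FDR under 0.05 and, in each step, for the genes of smallest p and of highest mean FPKM. Other genes of the pathway are named where FDR is under 0.05 or where their p is the smallest of their list. Fcsk and Oga were added as lower genes with an unadjusted p under 0.05 in edgeR. A single gene that had been listed outside the 42 is not reported here, and the lists' counts are without it. The genes, lists and tests were chosen with earlier results of these data known.

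Alternatives were DESeq2 1.42.0, library size only, upper quartile scaling or DESeq2 size factors in edgeR, limma 3.58.1 on log2-transformed FPKM (pseudocount 1 or 0.1), no filter, at least 10 counts in every sample, the replicate block and each sample left out. An offset for transcript length (natural spline), the ratios within samples, ERSE-II, the mismatch search and the luminal median with Alg10b were added after seeing the data. Positions and shared 50-base windows are from GENCODE M21 on GRCm38, in which 22255 of 22298 identifiers were found, and promoters from RefSeq on GRCm38.p6, matched by symbol.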

Additional observations from a re-analysis of the deposited data

How the results depend on the processing

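Precision is limited by 3 samples a group and by control 1. Leaving out each sample in turn gave 0 to 16 pathway genes called, the same range for those called higher, and 47 to 2798 of all genes. The 0 came from each fit without an epinephrine sample and the 16 from the fit without control 1. The median log2 fold change of the 41 genes then ranged from 0.13 to 0.19. By step these medians ranged from 0.12 to 0.20 (UDP-GlcNAc), 0.12 to 0.27 (GDP-mannose), 0.13 to 0.32 (dolichol phosphate), 0.15 to 0.26 (cytosolic face), 0.28 to 0.43 (luminal face), 0.22 to 0.56 (glucose trimming), -0.075 to 0.0023 (mannose trimming) and -0.11 to 0.030 (Golgi).

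The median of the 41 was 0.13 with library size only and 0.13 with limma on FPKM with either pseudocount. DESeq2 called 4 of the 41, all higher, and 734 of all genes. With the replicate block, 178 of all genes were called, and Gmppb remained the only one of the 41 called. The offset for transcript length called 506. Why these counts differ was not tested.

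Of the 41 genes, 28 kept their sign in all 16 alternatives. The other 13 had a log2 fold change of at most 0.16 in size. With a sample left out they ranged from -0.088 to 0.19 (Alg14), -0.15 to 0.12 (Alg2), -0.018 to 0.20 (Alg6), -0.020 to 0.10 (Alg9), -0.15 to 0.026 (Dolpp1), -0.17 to 0.19 (Dpm1), -0.035 to 0.31 (Ganab), -0.0024 to 0.26 (Gfpt1), -0.075 to 0.0023 (Man1b1), -0.079 to 0.22 (Man2a1), -0.11 to 0.016 (Mgat1) and -0.25 to 0.030 (Mgat5). Alg9 was -0.0029 and Man2a1 -0.00068 with library size only, Alg6 was -0.0031 and -0.0030 with limma at 1 and 0.1, and Gmppa was -0.015 and Alg9 -0.0072 with the length offset. Among the genes that kept their sign, Pmm1 had 0.34 and Alg11 0.32 without control 3, where Mgat4a had 0.06. Without control 2, Prkcsh had 0.26 and Mpi 0.05.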
